A study of Mus musculus with 4 samples.

Results

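Signals of the Wnt pathway were followed through 47 genes in the corpus, the acid-secreting body of the mouse stomach, at 48 hr after a dose of HDT. The genes were taken by symbol from a list of 10 Wnt ligands, 2 genes of ligand secretion, 10 receptors, 6 genes of the R-spondin module, 8 secreted antagonists, 3 genes of β-catenin and its destruction complex, 4 TCF/LEF factors and 4 targets and feedback inhibitors. All 47 were found among the 52125 rows of the table, and 43 had enough reads to be tested. Each of the 4 libraries came from 1 wild type C57BL/6 mouse aged 6 to 8 weeks. The HDT group (2 mice) received a single injection into the peritoneum of 5 mg per 20 g of body weight, and the vehicle group (2 mice) is called vehicle in the titles and untreated in the protocol. HDT commonly abbreviates high-dose tamoxifen in work on stomach injury, but the labels give the abbreviation alone. No transgene or induced allele is named for either group, and the RNA is that of the whole corpus tissue. In such bulk samples, fewer cells of a type and less RNA per cell cannot be told apart.

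Wnt proteins are secreted lipid-modified ligands that bind Frizzled receptors together with the coreceptors Lrp5 and Lrp6. Binding halts the complex of Axin and Apc that otherwise marks β-catenin for destruction, and β-catenin then enters the nucleus and switches on genes with TCF/LEF factors. R-spondins raise the response by removing the ubiquitin ligases Rnf43 and Znrf3 from the cell surface through Lgr receptors. In the stomach, Wnt and R-spondin ligands from stromal cells are known to support gland stem cells.

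Depth was 41536686 to 42674985 reads per library. Levels are in CPM, read counts relative to library size, after TMM scaling, which sets libraries to a common level on the bulk of their genes, and ± is the SD over the 2 mice. The summed level of 5 parietal cell markers was 11832 and 12965 CPM in vehicle and 1819 and 1462 CPM in HDT, and these markers of the corpus were present in every library, while 3 markers of the neighbouring antrum summed to 0.78 to 0.89 CPM in all libraries. Other cell markers also differed between the groups, and their part in the Wnt results was not tested. Of the parietal markers 4 of 5 were called lower, and 3 of 4 chief cell markers were, with chief sums of 141924 and 174340 CPM in vehicle and 40274 and 29602 CPM in HDT. All 4 surface mucous markers were called lower, though none as deposited, and 4 of 6 macrophage markers were called higher (118 and 122 CPM summed in vehicle, 196 and 183 CPM in HDT). The deposited scaling differs from TMM by a common shift: over all tested genes the median log2 fold change was −0.001 with TMM and 0.526 as deposited. Directions of modest changes depend on this choice, and each called Wnt gene that flips or loses its call as deposited is named as such.

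With TMM, 10 of the 43 tested Wnt genes were called higher in HDT and 5 lower (limma, adjusted p under 0.05), with 28 without a call. Across all 18285 tested genes, 18.4% were called higher and 19.3% lower, against 23.3% and 11.6% of the Wnt genes, so the shares were near those of genes at large. The median log2 fold change of the Wnt genes was 0.06. At least 2-fold rises were called for 4 of them, Ascl2, Notum, Tcf7 and Axin2, and a fall of that size for 1, Dkk2, where all genes had 4.07% and 4.50%. Ascl2 and Notum had enough reads to be tested only through their HDT libraries. Both HDT libraries lay above both vehicle libraries for 18 Wnt genes, or 41.9%, and below for 13, or 30.2%, beside 35.3% and 35.5% of all tested genes. With edgeR on the recovered reads 9 were called higher and 5 lower, beside 18.2% and 18.8% of all genes. At the deposited scaling 32 were called higher and 1 lower, beside 62.8% and 5.46% of all genes.

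**Figure D1:**
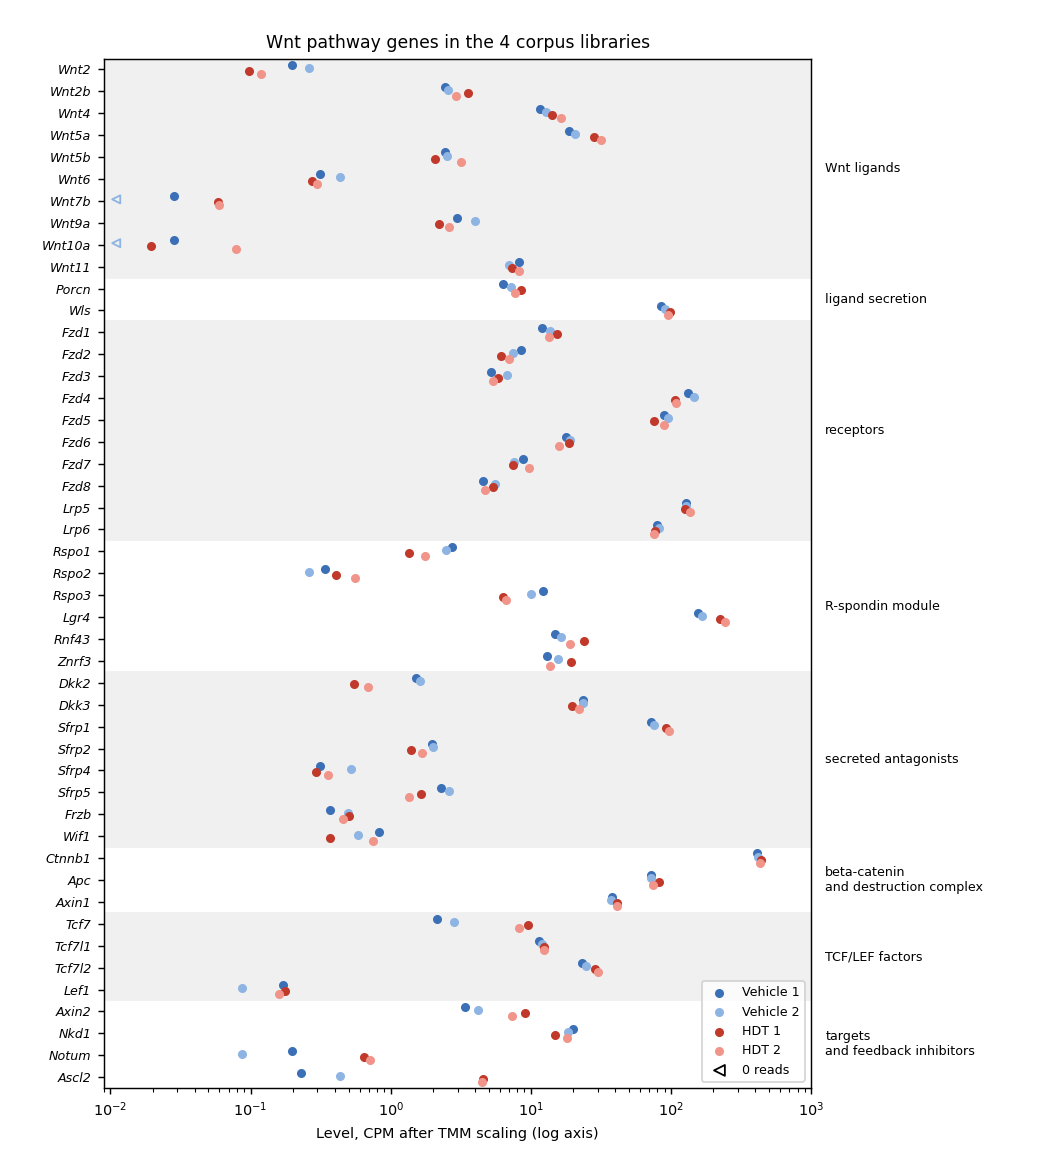
Level of each of the 47 Wnt pathway genes in the 4 libraries, in CPM after TMM scaling on a log axis, with genes grouped by role and 1 point per library. Ascl2 lies at 0.23 and 0.44 CPM in vehicle and at 4.53 and 4.48 CPM in HDT, while the points of Ctnnb1 stay between 409 and 439.7 CPM in all 4 libraries.

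The Wnt targets and feedback inhibitors held the largest rises. Ascl2, a transcription factor of gland and crypt stem cells and a direct Wnt target, was at 0.23 and 0.44 CPM in the vehicle libraries and at 4.53 and 4.48 CPM in the HDT libraries. Behind these levels stood 8 and 15 reads in vehicle and 233 and 226 reads in HDT, so the groups lay far apart although vehicle rested on few reads. The log2 fold change was 3.75 (SE 0.31, limma adjusted p = 7.55e-05), and the ratio of the mean levels was 13.6. Ascl2 lies on chromosome 7 at 142966829 to 142969264 (GRCm38).

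Axin2, which forms part of the destruction complex and is itself induced by β-catenin, was at 3.38 and 4.18 CPM in vehicle and at 9.14 and 7.33 CPM in HDT. The groups did not overlap, and the log2 fold change was 1.12 (SE 0.16, limma adjusted p = 0.0012), a 2.18-fold rise of the mean. Axin2 is on chromosome 11 at 108920349 to 108950783. Notum, a secreted enzyme that strips the lipid from Wnt ligands, was at 0.20 and 0.087 CPM in vehicle and 0.64 and 0.71 CPM in HDT, which are 7 and 3 reads against 33 and 36. Its log2 fold change was 2.18 (SE 0.45, limma adjusted p = 0.00697), and it lost its call without HDT replicate 1 (adjusted p = 0.0531) or HDT replicate 2 (adjusted p = 0.0726). Genes on the other strand overlap 38.1% of the Notum exons, and the strand setting of the counting is not given in the sources used here, so reads of Notum and these partners cannot be told apart. The same limit holds to a smaller extent for other members, among them Fzd5 (17.8%), Sfrp2 (16.1%), Ctnnb1 (14.6%), Lef1 (13.7%) and Rspo3 (13.1%). Nkd1, an inhibitor that acts on Dishevelled, was at 19.9 and 18.3 CPM in vehicle and at 14.9 and 17.99 CPM in HDT, with no call at a log2 fold change of −0.22, and it was called higher as deposited (0.31). Thus 3 of the 4 genes of this role were called higher, beside 18.4% of all tested genes. Ascl2 and Notum had enough reads to be tested only through their HDT libraries. The filter thus favours rises among such low genes, and this count is no separate support for a rise. The median log2 fold change of all 4, Nkd1 included, was 1.65. The genes of this role were chosen with earlier results of these data known.

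Markers of dividing cells moved with these targets. All 5 were called higher, with a summed level of 97.1 and 114.5 CPM in vehicle and 478 and 391 CPM in HDT, and their part in the rise of the targets was not tested. HDT replicate 1 had the higher level of the pair for Axin2 and for this marker sum. Ascl2 was nearly equal in both HDT libraries, and Notum and Nkd1 were higher in HDT replicate 2.

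Promoters of 3 called rises, 2 called falls and a gene with no call are shown, to let the sequence at the start site be read beside the change in level. RefSeq windows on GRCm38.p6 were matched for 28 of the 47 genes, in 38 windows, and the 250 bases before each start were searched on both strands. The letters searched were CTTTGA and CTTTGT, the core bound by TCF/LEF factors, CAGCTG, an E-box read by Ascl-type factors, and CCAAT, the box bound by NF-Y; no letters of these motifs are shared by overlap in the windows shown. Each window is written 5′ to 3′ on the strand of its gene, and capitals mark these motifs or their reverse complements. Ascl2, Axin2 and Lgr4 were called higher, Dkk2 and Rspo1 were called lower, and Wnt11 had no call.
Ascl2, chr7:142969265-142969514, minus strand: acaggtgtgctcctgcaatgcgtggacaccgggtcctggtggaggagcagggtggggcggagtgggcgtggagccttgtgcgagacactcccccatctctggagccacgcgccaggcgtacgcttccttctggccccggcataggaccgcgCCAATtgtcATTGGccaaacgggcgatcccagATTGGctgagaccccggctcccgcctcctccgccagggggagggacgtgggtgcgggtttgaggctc
Axin2, chr11:108920099-108920348, plus strand: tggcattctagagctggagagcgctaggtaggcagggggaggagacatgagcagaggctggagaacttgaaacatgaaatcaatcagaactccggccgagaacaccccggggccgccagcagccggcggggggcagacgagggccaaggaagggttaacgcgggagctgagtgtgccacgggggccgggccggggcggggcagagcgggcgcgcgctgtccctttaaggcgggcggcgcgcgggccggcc
Lgr4, chr2:109917397-109917646, plus strand: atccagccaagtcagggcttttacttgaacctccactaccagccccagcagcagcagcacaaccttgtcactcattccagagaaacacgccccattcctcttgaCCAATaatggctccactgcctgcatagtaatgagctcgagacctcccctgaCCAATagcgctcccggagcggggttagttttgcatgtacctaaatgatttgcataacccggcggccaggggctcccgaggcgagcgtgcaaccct
Dkk2, chr3:132085042-132085291, plus strand: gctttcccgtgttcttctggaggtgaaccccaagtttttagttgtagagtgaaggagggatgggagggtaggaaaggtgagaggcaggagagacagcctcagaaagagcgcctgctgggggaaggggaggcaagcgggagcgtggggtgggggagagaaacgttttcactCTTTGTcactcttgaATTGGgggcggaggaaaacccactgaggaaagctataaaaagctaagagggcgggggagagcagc
Rspo1, chr4:124986180-124986429, plus strand: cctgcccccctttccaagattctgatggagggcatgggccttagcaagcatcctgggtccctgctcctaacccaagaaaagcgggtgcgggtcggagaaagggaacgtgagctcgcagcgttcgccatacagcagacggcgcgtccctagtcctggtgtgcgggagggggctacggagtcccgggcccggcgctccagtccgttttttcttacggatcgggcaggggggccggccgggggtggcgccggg
Wnt11, chr7:98834862-98835111, plus strand: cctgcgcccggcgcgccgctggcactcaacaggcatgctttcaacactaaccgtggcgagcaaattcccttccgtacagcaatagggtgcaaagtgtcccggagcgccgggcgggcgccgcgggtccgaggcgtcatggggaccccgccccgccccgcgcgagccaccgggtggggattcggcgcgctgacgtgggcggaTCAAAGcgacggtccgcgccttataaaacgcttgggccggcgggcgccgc
CTTTGA was present in 5 of the 38 member windows (13.2%) and in 13.8% of all 32851 windows of this length. CTTTGT was in 6 member windows (15.8%, beside 16.5% of all), CAGCTG in 5 (13.2%, beside 13.0%) and CCAAT in 9 (23.7%, beside 33.8%). Some genes had several windows, which partly overlap for Lef1 and Ctnnb1, so the windows are not all independent. The Ascl2 window held 3 CCAAT boxes and the Lgr4 window 2, and no TCF/LEF core was in the Ascl2, Axin2, Lgr4 or Rspo1 window. Sites outside these 250 bases were not searched, so a missing core here does not tell whether a gene has TCF/LEF sites elsewhere. Dkk2 held CTTTGT 80 bases before its start, and Wnt11 held the reverse complement of CTTTGA 50 bases before its start in the window shown and no motif in its other window. Among genes not shown, Tcf7l2, called higher, held CTTTGT 14 bases before 1 of its starts, and Sfrp5, called lower, held none of the motifs. The median GC content of the member windows was 64.8%, against 52.4% of all windows.

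Among the TCF/LEF factors, which carry β-catenin to its target genes, Tcf7 changed most. Tcf7 was at 2.13 and 2.85 CPM in vehicle and at 9.61 and 8.26 CPM in HDT, from 75 and 98 reads to 494 and 417. The log2 fold change was 1.85 (SE 0.17, limma adjusted p = 0.000137), a 3.59-fold rise of the mean, on chromosome 11 at 52252371 to 52283014. Tcf7 is also a well-known gene of T cells and innate lymphoid cells. The 7 markers of those cells summed to 5.08 and 5.40 CPM in vehicle and to 10.3 and 8.26 CPM in HDT. Cd4 alone carried this difference: the other 6 summed to 1.73 and 2.06 CPM in vehicle and 1.59 and 1.66 CPM in HDT. Of the 3 that could be tested, Cd4 was called higher and the T cell receptor gene Trac lower, the latter without a call as deposited. The part of these cells in the Tcf7 result was not tested. The CD3 subunits Cd3e, Cd3d and Cd3g were below 0.23 CPM in every library, and none of the 7 markers was at 0 in all libraries.

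Tcf7l2, the main TCF factor of intestinal epithelium, was at 23.0 and 24.7 CPM in vehicle and at 28.6 and 30.1 CPM in HDT. This was a log2 fold change of 0.30 (SE 0.074, limma adjusted p = 0.0155), which lost its call without vehicle replicate 1 (adjusted p = 0.101) or HDT replicate 2 (adjusted p = 0.0551). Tcf7l1, often a repressor of Wnt targets, was at 11.4 and 11.9 CPM in vehicle and 12.5 CPM in each HDT library, with no call (log2 fold change 0.10, adjusted p = 0.431). Lef1 had 3 to 9 reads per library and was not tested. Per kilobase of exon, Tcf7 took 12.7% and 15.6% of the reads of the 4 factors in vehicle and 36.2% and 32.2% in HDT, a share that does not depend on the scaling. Over the same libraries the share of Tcf7l1 was 45.7% and 43.7% in vehicle and 31.4% and 32.5% in HDT. A share drops when another gene of the family rises, and the Tcf7l1 level itself was not lower in HDT with TMM.

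**Figure D2:**
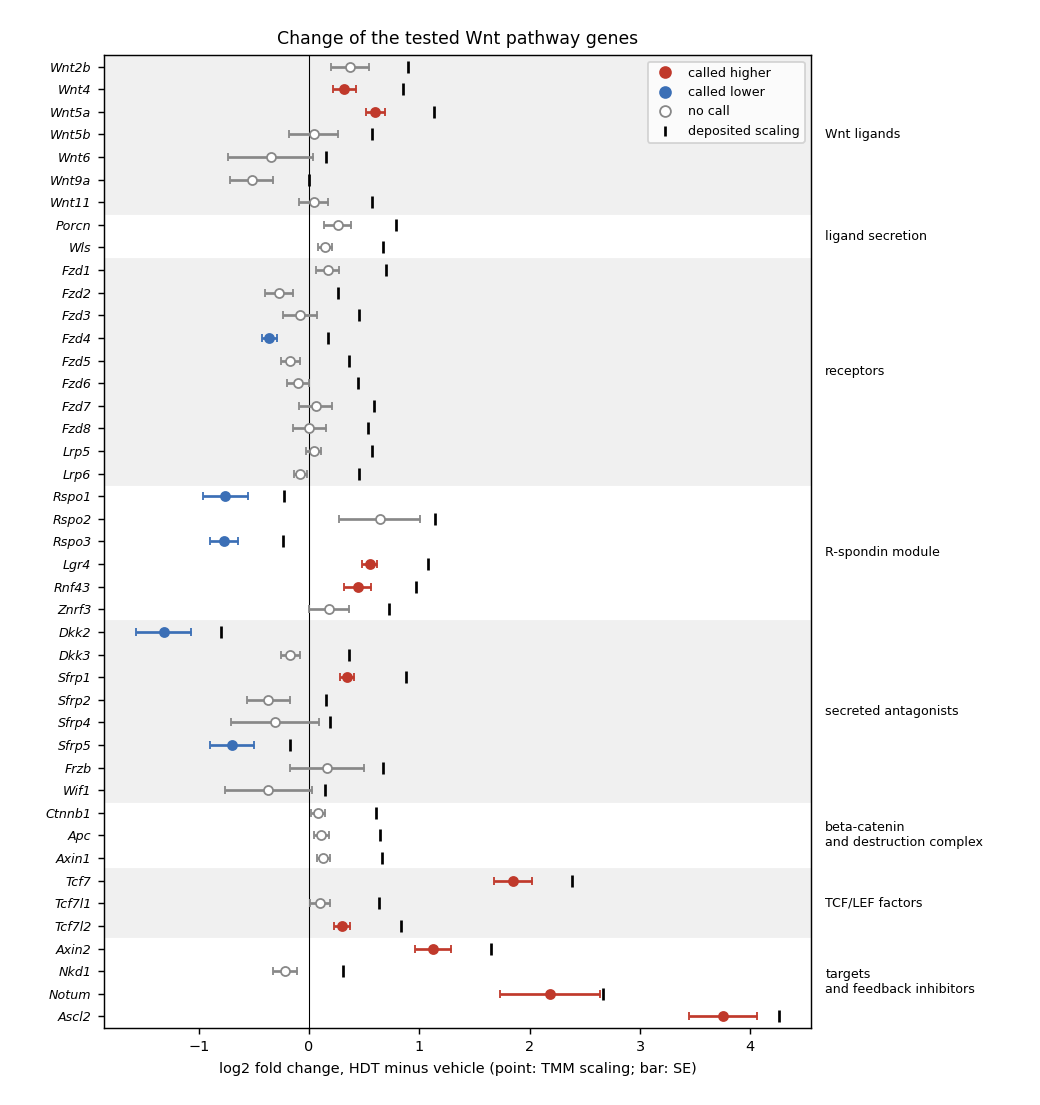
Log2 fold change (HDT minus vehicle) of the 43 tested Wnt pathway genes with TMM scaling, with SE bars from limma, and as black ticks at the deposited scaling. Filled points are the 10 genes called higher and the 5 called lower; the ticks lie to the right of the points by about the common shift, and Fzd4 crosses from −0.36 to 0.17.

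β-catenin and its destruction complex had no call. Ctnnb1, the gene of β-catenin, had the highest level per kilobase of all members and was at 409 and 419 CPM in vehicle and at 439.7 and 432 CPM in HDT (log2 fold change 0.08, SE 0.062, limma adjusted p = 0.374). The scaffold Apc was at 72.4 and 71.7 CPM in vehicle and 81.9 and 73.9 CPM in HDT, and the scaffold Axin1 at 38.0 and 37.1 CPM and 41.1 and 40.9 CPM. The HDT libraries of all 3 genes lay above the vehicle libraries, by at most 0.13 on the log2 scale. The ratio of Axin2 to Axin1 reads within a library, which needs no scaling, was 0.089 and 0.113 in vehicle and 0.222 and 0.179 in HDT. With 2 libraries against 2 the exact permutation test on such a ratio gave p = 0.333 (two-sided), the smallest it can give. The ratio restates the levels of both genes and is no separate support for a rise of Axin2.

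In the R-spondin module the receptor Lgr4 was called higher, and of the ligands Rspo3 and Rspo1 were called lower, Rspo2 had no call and Rspo4, outside the 47 genes, was called higher. Lgr4, the R-spondin receptor of most epithelia, was at 155 and 165 CPM in vehicle and at 225 and 244 CPM in HDT. The log2 fold change was 0.55 (SE 0.069, limma adjusted p = 0.000589), on chromosome 2 at 109917647 to 110014257. Rspo3, the R-spondin of stomach myofibroblasts, was at 12.3 and 9.99 CPM in vehicle and at 6.32 and 6.70 CPM in HDT. The log2 fold change was −0.77 (SE 0.13, limma adjusted p = 0.00233), on chromosome 10 at 29452416 to 29535867. As deposited the value was −0.24 with no call. The ratio of Rspo3 to Lgr4 reads, which needs no scaling, was 0.079 and 0.061 in vehicle and 0.028 and 0.027 in HDT (exact permutation p = 0.333, the smallest possible). It sets a gene called lower over one called higher, so its separation follows from those calls. It is no separate support for a fall of Rspo3, since the Lgr4 rise alone lowers it.

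Rspo1 was at 2.76 and 2.47 CPM in vehicle and at 1.34 and 1.74 CPM in HDT, with a log2 fold change of −0.76 (SE 0.20, limma adjusted p = 0.0205). Its reads before scaling, 97 and 85 against 69 and 88, overlapped between the groups. It had no call at the deposited scaling, nor without vehicle replicate 1 (adjusted p = 0.0759) or HDT replicate 1 (adjusted p = 0.0953). The call was also lost with DESeq2 (adjusted p = 0.0609) and the replicate block (adjusted p = 0.0546). Rspo2 had 9 to 28 reads per library and no call, with both HDT libraries above both vehicle libraries (log2 fold change 0.64, adjusted p = 0.215).

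Rspo4, named here after its values were seen, was at 0.57 and 0.67 CPM in vehicle and at 3.58 and 1.23 CPM in HDT, from 20 and 23 reads to 184 and 62. Its log2 fold change was 1.73 (SE 0.50, limma adjusted p = 0.0389), and HDT replicate 1 was by far the higher library of the pair. The call was lost without HDT replicate 1 (0.98, adjusted p = 0.0742), without vehicle replicate 1 (adjusted p = 0.356) or vehicle replicate 2 (adjusted p = 0.314), without the low-value filter (adjusted p = 0.0545) and in limma without its trend and robust options (adjusted p = 0.106). Over all 4 R-spondins, the Rspo3 share of reads per kilobase was 69.7% and 66.8% in vehicle and 47.3% and 58.7% in HDT, and that of Rspo4 was 4.20% and 5.82% against 34.9% and 14.03%. Their summed level was 5.71 and 4.84 RPKM (CPM per kilobase of exon) in vehicle and 4.33 and 3.69 RPKM in HDT. Without Rspo4 the sums were 5.47 and 4.56 RPKM against 2.82 and 3.18 RPKM, and the Rspo3 share was 68.3% to 72.8%.

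The ubiquitin ligases that R-spondins remove are also Wnt targets. Rnf43 was at 14.8 and 16.4 CPM in vehicle and at 23.7 and 18.9 CPM in HDT, a log2 fold change of 0.44 (SE 0.12, limma adjusted p = 0.0227). The call was lost without vehicle replicate 1 (adjusted p = 0.0849), without HDT replicate 1 (log2 fold change 0.28, adjusted p = 0.0935) and with the replicate number as a block (adjusted p = 0.0603). Znrf3 was at 13.01 and 15.6 CPM in vehicle and at 19.2 and 13.6 CPM in HDT, so the groups overlapped and it had no call. Without HDT replicate 2, the lower of the pair, it was called at 0.45 (adjusted p = 0.0416). HDT replicate 1 was thus the higher HDT library for Rnf43 and Znrf3, as it was for Axin2.

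Of the 10 Wnt ligands, 2 were called higher and none lower, and 3 had too few reads to test. The 2 were 28.6% of the 7 tested ligands, where 18.4% of all tested genes were called higher and 19.3% lower. Wnt5a, a ligand known for signalling apart from β-catenin, was at 18.7 and 20.5 CPM in vehicle and at 28.2 and 31.4 CPM in HDT. The log2 fold change was 0.60 (SE 0.086, limma adjusted p = 0.00108), on chromosome 14 at 28504750 to 28527448. Wnt4 was at 11.6 and 12.7 CPM in vehicle and at 14.1 and 16.5 CPM in HDT, and its log2 fold change of 0.32 stood close to the threshold (SE 0.11, limma adjusted p = 0.0465). The Wnt4 call was lost with edgeR (adjusted p = 0.0579), DESeq2 (0.0949), the replicate block (0.0687), without vehicle replicate 1 (0.186) and without HDT replicate 2 (0.191).

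The other tested ligands had no call. Wnt2b was at 2.44 and 2.56 CPM in vehicle and 3.58 and 2.93 CPM in HDT, and Wnt9a at 2.98 and 4.01 CPM and 2.20 and 2.62 CPM. Wnt9a had a log2 fold change of −0.52 (adjusted p = 0.0702), which was called without vehicle replicate 1 (−0.74, adjusted p = 0.0248). Wnt11 and Wnt5b each had a log2 fold change of 0.04 with overlapping groups, and Wnt6 had 11 to 15 reads per library. Wnt2 had 5 to 9 reads, Wnt7b 0 to 3 and Wnt10a 0 to 4. The vehicle library with 0 reads of Wnt7b and Wnt10a allows up to 0.087 CPM of each, a limit of 3 reads that covers counting error only. Wnt7b and Wnt10a are known from squamous epithelium, and the 8 markers of that epithelium summed to 1.45 to 2.60 CPM over the 4 libraries.

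Per kilobase, Wnt4 was the most abundant ligand in vehicle (2.91 ± 0.19 RPKM), followed by Wnt5a (2.51 ± 0.16 RPKM) and Wnt11 (1.84 ± 0.23 RPKM). In HDT, Wnt5a was at 3.81 ± 0.29 RPKM, Wnt4 at 3.64 ± 0.41 RPKM and Wnt11 at 1.89 ± 0.15 RPKM. Wnt5a lay slightly above Wnt4 in HDT replicate 1 (3.60 against 3.35 RPKM) and HDT replicate 2 (4.01 against 3.94 RPKM). The difference between the 2 ligands was not tested. Over these 10 ligands, Wnt5a made up 24.4% and 25.1% of reads per kilobase in vehicle and 32.1% and 31.2% in HDT, and Wnt9a 9.12% and 11.5% against 5.89% and 6.11%. The share of Wnt4 was 28.3% to 30.6% in all 4 libraries. Stromal markers moved with Wnt5a: of 8 fibroblast markers 6 were called higher and 1, Dpt, lower (no call as deposited), with sums of 1101 and 1087 CPM in vehicle and 1946 and 2182 CPM in HDT. Of 5 markers of subepithelial telocytes, stromal cells known to make Wnt5a, 4 were called higher and Bmp4 had no call. Pdgfra is in both marker lists, so the lists are not separate. The part of these cells in the Wnt5a result was not tested.

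**Figure D3:**
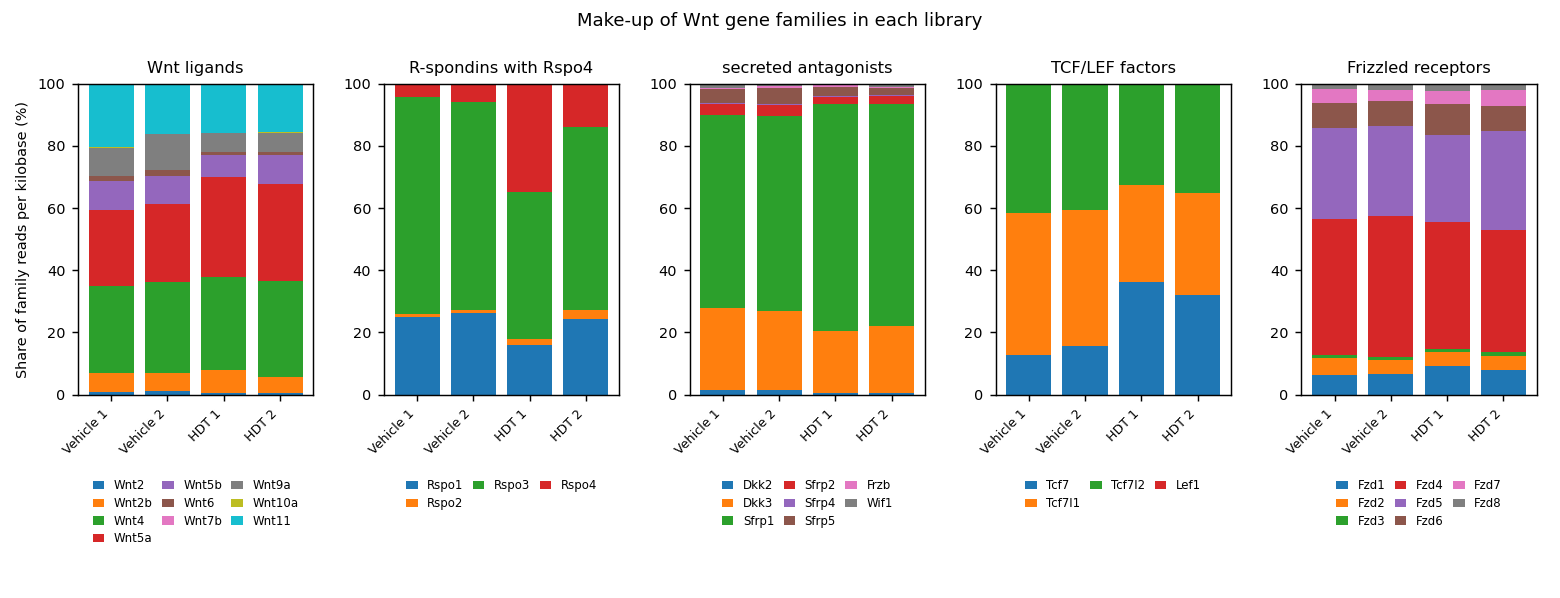
Share of each gene in the reads per kilobase of its family, in percent, for the 10 Wnt ligands, the 4 R-spondins, the 8 secreted antagonists, the 4 TCF/LEF factors and the 8 Frizzled receptors, with 1 stacked bar per library. The Tcf7 share goes from 12.7% and 15.6% in vehicle to 36.2% and 32.2% in HDT, and the Rspo3 share is 69.7% and 66.8% in vehicle and 47.3% and 58.7% in HDT.

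Porcn, which attaches the lipid to Wnt ligands, and Wls, which carries them to the cell surface, had no call. Porcn was at 6.33 and 7.26 CPM in vehicle and 8.48 and 7.75 CPM in HDT, and Wls at 85.2 and 91.1 CPM and 98.5 and 95.1 CPM. For both genes the HDT libraries lay above the vehicle libraries, with log2 fold changes of 0.26 and 0.14, and at the deposited scaling both were called higher.

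Among the 10 receptors and coreceptors only Fzd4 was called with TMM, and it was called lower. Of all tested genes 18.4% were called higher and 19.3% lower. Fzd4 was at 131 and 146 CPM in vehicle and at 107.5 and 108 CPM in HDT. Its log2 fold change of −0.36 (SE 0.069, limma adjusted p = 0.0048) became 0.17 at the deposited scaling, where it was called higher (adjusted p = 0.0351), so its direction rests on the scaling. Fzd5, the Frizzled of gut epithelium, was at 89.3 and 95.6 CPM in vehicle and at 75.8 and 89.3 CPM in HDT, with no call (log2 fold change −0.17, adjusted p = 0.17). The coreceptors Lrp5, at 127 and 128 CPM in vehicle and 126 and 136 CPM in HDT, and Lrp6, at 79.0 and 82.6 CPM and 77.4 and 75.4 CPM, had log2 fold changes of 0.04 and −0.08. Fzd1, Fzd2, Fzd3, Fzd6, Fzd7 and Fzd8 ranged from 4.54 to 19.1 CPM over all libraries, with log2 fold changes of −0.27 to 0.17 and no call. Per kilobase, Fzd4 came first among the Frizzled genes in vehicle (20.6 ± 1.52 RPKM) and in HDT (16.1 ± 0.086 RPKM). Fzd5 was second (13.4 ± 0.64 and 11.9 ± 1.38 RPKM), and their shares were 44.0% and 45.3% against 40.9% and 39.5% for Fzd4 and 28.0% to 31.6% for Fzd5.

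Of the 8 secreted antagonists, 1 was called higher and 2 lower. Sfrp1, which binds Wnt ligands outside the cell, was at 72.4 and 75.98 CPM in vehicle and at 92.03 and 96.2 CPM in HDT. The log2 fold change was 0.34 (SE 0.063, limma adjusted p = 0.00369), on chromosome 8 at 23411502 to 23449632, with no call in limma without its trend and robust options (adjusted p = 0.0527). Dkk2, an inhibitor that binds the Lrp coreceptors, was at 1.51 and 1.63 CPM in vehicle and at 0.54 and 0.69 CPM in HDT, from 53 and 56 reads to 28 and 35. Its log2 fold change was −1.32 (SE 0.25, limma adjusted p = 0.00425) and −0.80, still called lower, as deposited, on chromosome 3 at 132085292 to 132180304.

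Sfrp5 was at 2.27 and 2.61 CPM in vehicle and at 1.65 and 1.35 CPM in HDT, with a log2 fold change of −0.70 (SE 0.20, limma adjusted p = 0.0269). Its reads before scaling, 80 and 90 against 85 and 68, overlapped, and it had no call at the deposited scaling, without vehicle replicate 2 (adjusted p = 0.111), without HDT replicate 2 (adjusted p = 0.119), with DESeq2 (0.0956) or with the replicate block (0.0684). Dkk3 was at 23.4 CPM in each vehicle library and at 19.5 and 22.1 CPM in HDT, with no call. Sfrp2 was at 1.96 and 2.003 CPM against 1.40 and 1.66 CPM, and Sfrp4, Frzb and Wif1 had 11 to 38 reads per library, all without a call. Over these 8 antagonists, Sfrp1 made up 62.4% and 63.0% of reads per kilobase in vehicle and 72.8% and 71.5% in HDT. The ratio of Sfrp1 to Dkk3 reads was 3.10 and 3.25 in vehicle and 4.71 and 4.35 in HDT (exact permutation p = 0.333, the smallest possible). It sets a gene called higher over one with a negative log2 fold change. Its separation thus follows from their levels and is no separate support.

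The summed mesothelial markers, of the outer lining of the stomach, were lower in HDT, as were Rspo1, Sfrp5 and the other called falls. Within each group Rspo1 had the same order of libraries as this sum, whereas Sfrp5 had the opposite order. Of 5 such markers 4 were called lower, and their sum was 15.3 and 10.7 CPM in vehicle and 5.31 and 6.56 CPM in HDT. Msln, the gene of mesothelin, had no call, none was at 0 in all libraries, and the part of this lining in these results was not tested. The 6 smooth muscle markers had no call, with sums of 2419 and 1706 CPM in vehicle and 1491 and 2181 CPM in HDT.

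**Figure D4:**
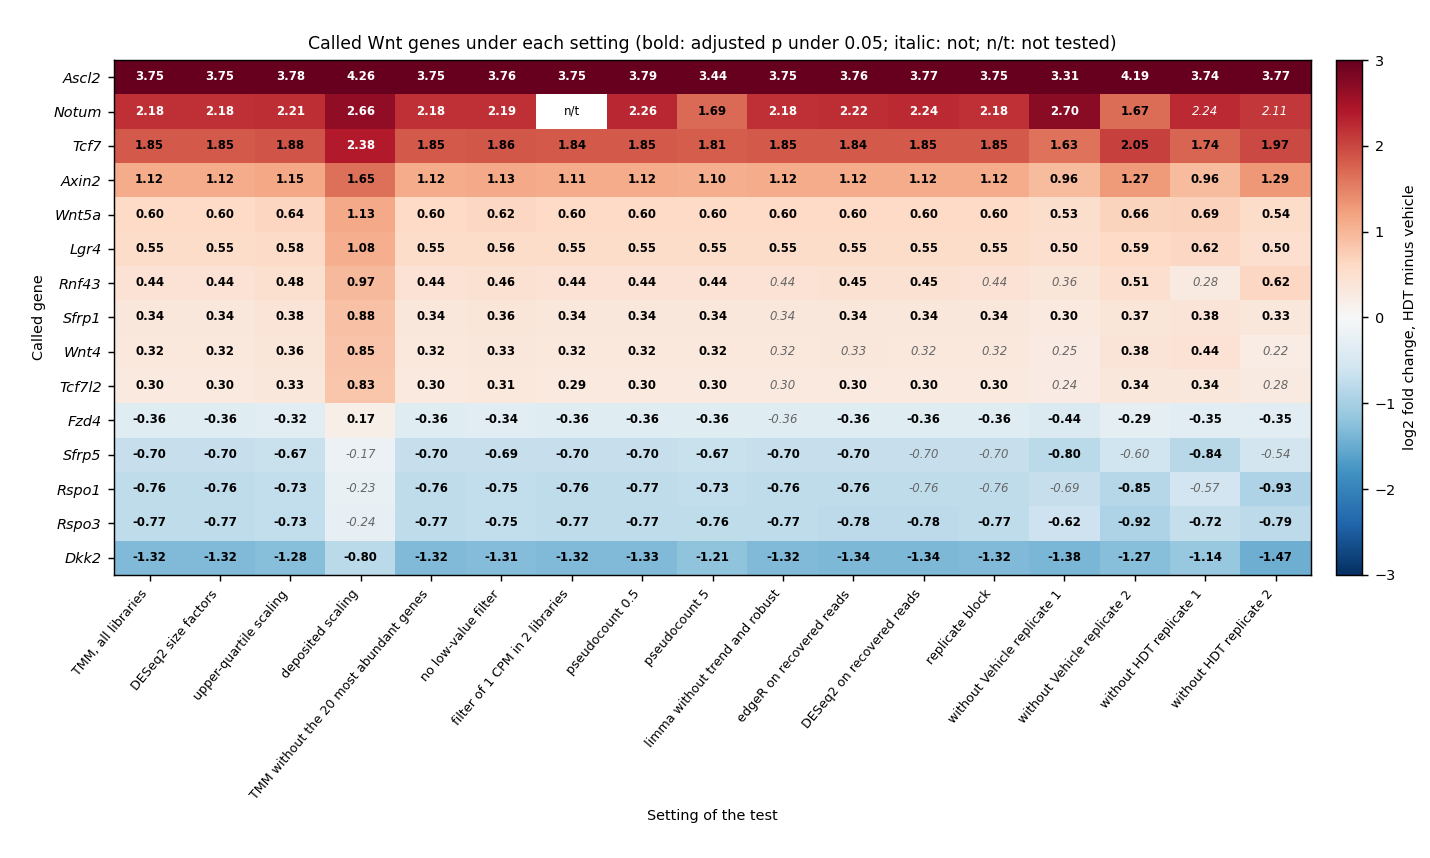
Log2 fold change of the 15 called Wnt genes under TMM with all libraries and under 16 alternative settings, with bold numbers where adjusted p was under 0.05, italic where it was not, and color for the value. Ascl2, Tcf7, Axin2, Wnt5a, Lgr4 and Dkk2 are bold in every column, and Fzd4 is positive at the deposited scaling alone.

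Other genes of the pathway were counted from 7 lists of 78 genes, chosen with earlier results of these data known. Of the 66 with enough reads, 22 were called higher and 9 lower, which is 33.3% and 13.6% beside 18.4% and 19.3% of all tested genes, with a median log2 fold change of 0.10. At the deposited scaling 48 were higher and 5 lower, beside 62.8% and 5.46% of all genes. None of the 9 other Wnt ligands was called, and Wnt1, Wnt7a and Wnt8a had 0 reads in all libraries, as had the inhibitors Dkk1 and Dkk4. The canonical ligands Wnt3 and Wnt3a had at most 1 read per library, and Wnt16, the sole testable ligand of that list, was at 1.11 and 1.39 CPM in vehicle and 1.05 and 1.01 CPM in HDT.

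Of 9 other receptors and coreceptors, 4 were called higher (44.4%) and none lower, beside 18.4% and 19.3% of all tested genes. Fzd9 was at 0.28 and 0.29 CPM in vehicle and at 2.06 and 1.43 CPM in HDT (log2 fold change 2.49, SE 0.30, limma adjusted p = 0.000436), with 10 reads in each vehicle library. Lgr5, a marker of gland base stem cells, was at 3.64 and 6.01 CPM in vehicle and at 9.002 and 5.55 CPM in HDT. The groups overlapped, and Lgr5 had no call at a log2 fold change of 0.59 (SE 0.34, limma adjusted p = 0.248), and was called higher as deposited (1.12).

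Of 11 tested genes in the list of other β-catenin targets, 6 were called higher (54.5%) and 2 lower (18.2%), beside 18.4% and 19.3% of all tested genes. The median log2 fold change of the list was 0.91. Its genes were chosen with earlier results of these data known, so its share is no independent support. The receptor Tnfrsf19 was at 7.33 and 6.97 CPM in vehicle and at 24.1 and 17.7 CPM in HDT (log2 fold change 1.53, SE 0.15, limma adjusted p = 0.000226). The growth factor Fgf18 went the other way, from 1.79 and 1.65 CPM to 0.16 and 0.30 CPM, a log2 fold change of −2.88 (SE 0.35, limma adjusted p = 0.000518).

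The 5 testable extracellular inhibitors outside the members held 2 rises and 1 fall. Sostdc1, which blocks Wnt and BMP signals, was at 16.2 and 18.2 CPM in vehicle and 4.72 and 2.69 CPM in HDT, with a log2 fold change of −2.26 (SE 0.27, limma adjusted p = 0.00242). Dkkl1 rose by 2.32 from 1 and 2 reads to 20 and 11, and was not called without HDT replicate 2. Its reads were enough for a test only through its HDT libraries. Of 14 transducers inside the cell, 1 was called higher (7.14%) and 2 lower (14.3%), both below the shares of all tested genes. Dvl2, a Dishevelled protein that relays the receptor signal, was at 73.9 and 75.4 CPM in vehicle and at 45.6 and 46.2 CPM in HDT, called lower with TMM (−0.70 on the log2 scale) and as deposited (−0.17). Amer1, a scaffold of the destruction complex, rose by 0.42.

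Of 12 nuclear cofactors 5 were called higher (41.7%) and 2 lower (16.7%), beside 18.4% and 19.3% of all tested genes. The Groucho corepressors went both ways. Tle3 was at 68.1 and 63.4 CPM in vehicle and 112.4 and 104.9 CPM in HDT (log2 fold change 0.72, SE 0.068), whereas Tle2 was at 6.79 and 8.59 CPM and 3.89 and 2.87 CPM (log2 fold change −1.19, SE 0.19). Of 15 genes of the planar cell polarity branch, through which Wnt ligands orient cells without β-catenin, 4 were called higher and 2 lower. These shares were 26.7% and 13.3%, again beside 18.4% and 19.3%. The core gene Vangl2 rose by 0.85 from 1.79 and 2.09 to 3.42 and 3.57 CPM, and the cadherin Celsr1 fell by 0.76 from 53.6 and 62.7 to 34.1 and 34.3 CPM.

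**Figure D5:**
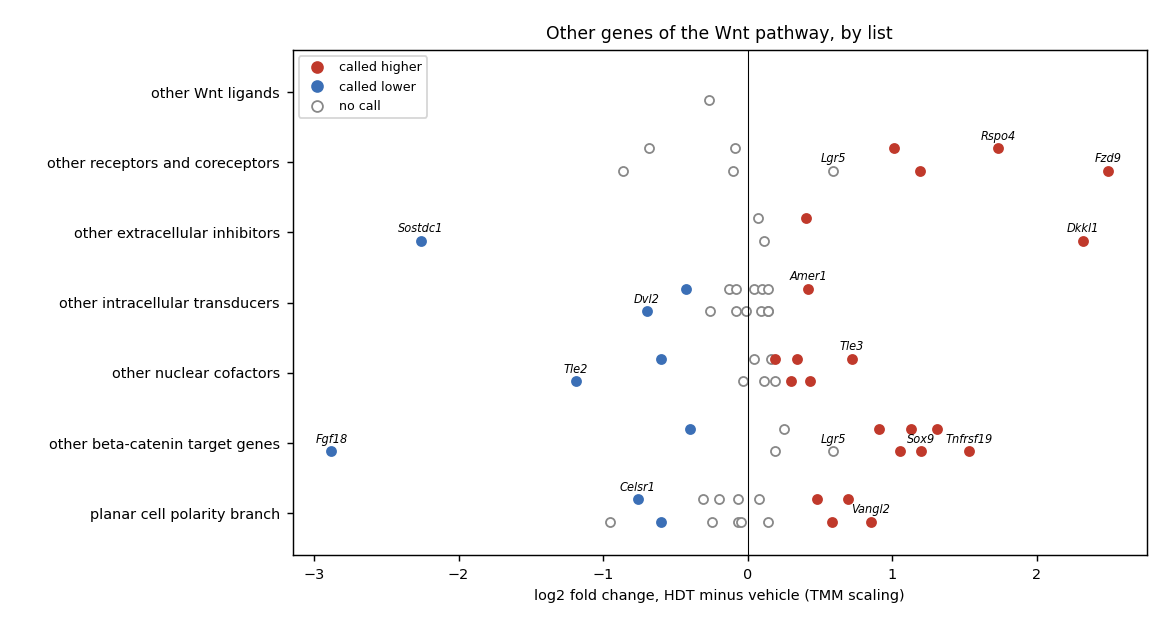
Log2 fold change (HDT minus vehicle, TMM scaling) of the 66 testable pathway genes outside the members, by list, with Lgr5 drawn in both of its lists. Filled points are called genes; 6 of 11 tested β-catenin targets lie to the right as calls, and Fgf18 at −2.88 is the point farthest to the left.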

How the data were processed

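Total RNA of the stomach corpus was sequenced in 2 vehicle and 2 HDT mice. The tools named, per the submitters' processing notes, are edgeR, Subread 2.0.0, featureCounts and STAR 2.7.1a, and mm10 and GRCm38 are the builds. Of the tools' roles, the strand setting and the normalization, none is given in the sources used here. The values the authors deposited are a signal, namely gene counts scaled within each library: dividing by the worth of 1 read (1.1128 to 1.1381) gave whole reads for 100% of values within 0.01.

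Genes were kept by filterByExpr (18285 of 52125 rows). Values were rescaled by TMM (factors 0.848, 0.818, 1.219 and 1.183), transformed as log2(value + 1), a scale that understates changes of low genes, and compared by limma 3.58.1 with trend and robust moderation, two-sided, with Benjamini-Hochberg adjustment over all tested genes and a threshold of 0.05. The median prior degrees of freedom were 5.87. Alternatives were other scalings, filters, pseudocounts of 0.5 and 5, limma without trend and robust, edgeR 4.0.16 and DESeq2 1.42.0 on recovered reads, a replicate block and leaving out each mouse, and the fits were tested on simulated data. edgeR called 3323 genes higher and 3445 lower. RPKM uses union exon lengths of GENCODE M21 on GRCm38. Every member is named, and companion genes are the largest called rise and fall of each list plus Lgr5; others, such as Rspo4, were chosen after their values were seen. The members and lists were chosen with earlier results of these data known.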

Additional observations from a re-analysis of the deposited data

How the results depend on the processing

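With TMM, 10 Wnt genes were higher and 5 lower. At the deposited scaling these were 32 and 1, the companion genes 48 and 5, and all tested genes 11483 and 998, since the scaling moves all genes by a common shift. There Fzd3 (0.45), Fzd4 (0.17), Fzd5 (0.36), Fzd6 (0.44), Lrp6 (0.45), Dkk3 (0.36) and Nkd1 (0.31) changed sign and were called higher. Without trend and robust moderation 6 Wnt genes were higher, and 2151 of all genes were higher and 2338 lower; Sfrp1 (adjusted p = 0.0527), Fzd4 (0.0634), Tcf7l2 (0.0784), Rnf43 (0.113) and Wnt4 (0.131) lost their calls there. DESeq2 on recovered reads and the replicate block each gave 3 lower Wnt genes, with Rspo1 and Sfrp5 losing their calls in both. The cause was not tested. DESeq2 also called fewer of all genes, 2611 higher and 2880 lower of 17930. The labels do not tie the shared numbers to a litter or day, and same-numbered deviations correlated at −0.278 over 18285 genes. With the replicate block 8 Wnt genes were higher, and all genes had 2367 higher and 2626 lower. Pairing the numbers crosswise, chosen after seeing the data, gave 10 higher and 7 lower Wnt genes, beside 4202 and 4323 of all genes. Leaving out 1 mouse gave 7 to 10 higher and 4 to 5 lower Wnt genes, 16 to 21 and 8 to 10 companion genes, and 2538 to 2749 and 2773 to 3041 of all genes; there the lone mouse is assumed to vary like the other group. In all 17 alternatives, 5 rises (Ascl2, Tcf7, Axin2, Wnt5a and Lgr4) and 1 fall (Dkk2) kept their calls. Depth limits Wnt2, Wnt7b, Wnt10a and Lef1, with at most 9 reads per library.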
